A study of Mus musculus with 24 samples.

Results

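The lysosome is the acidic organelle in which cells break down proteins, lipids and sugars, and autophagy is the route by which a cell wraps its own contents in a membrane and delivers them there. The machinery runs from kinases and conjugation enzymes that build the membrane, through ATG8-family proteins and adaptors that load cargo, to proton pumps, channels and hydrolases in the lysosome itself, many of which are switched on by the transcription factor TFEB. Microglia, the resident phagocytes of the brain, depend on this system to digest what they take up, and bacterial lipopolysaccharide (LPS) activates them.

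The 41 genes described here, of 15161 named on the array, are lysosome and autophagy genes chosen by name, with earlier results of these data known. Every probe annotated with one of these symbols was used. Of the 41, 40 had a probe (51 probes of the 24611 on the array), and Cd68 had none. The cells were BV-2, a single immortalized line of mouse microglia, hybridised to Illumina MouseRef-8 arrays. The 24 arrays fall into 6 groups: CBD+LPS (2 arrays), THC+LPS (4), LPS (6), CBD (2), THC (4) and control cells (Cntr, 6). Cannabidiol (CBD) and Δ9-tetrahydrocannabinol (THC), the main cannabinoids of cannabis, were each given at 10 µM for 6 h in all, and LPS at 100 ng/ml for 4 h, added 2 h after the cannabinoid where both were given. The cannabinoids were added from ethanol stocks, and whether control cells received ethanol is not given in the sources used here. Nothing in the labels says that the arrays of a group came from separate cultures, so p-values measure the spread between these arrays. The authors describe 4 independent arrays per treatment, and elsewhere 6 replicates, which differs from the 2, 4 or 6 arrays per group here. Values are the authors' log2 normalized signals, so a difference of 1 is a doubling. They hold no background subtraction, which makes fold changes of dim probes smaller than the change in RNA. Each gene is given by its brightest probe.

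Between 40.6% and 44.8% of all probes were detected per array (detection p under 0.05, the share of negative control beads at least as bright). Of the 14 microglia and macrophage markers checked, 13 had a probe and 10 of these were detected on all 24 arrays, while none of the 4 measured oligodendrocyte markers or of the 4 measured fibroblast and vessel markers was detected on any. Of the 6 astrocyte and 5 neuron markers measured, 2 and 1 were detected on at least 1 array. A change was called at an adjusted p under 0.05 (limma, Benjamini-Hochberg over all 24611 probes, 1 fit of all 24 arrays). The spread of probes higher against lower depends on scaling: 41.5% of the probes called with LPS against control were higher, and 23.9% after scaling arrays by their median signal alone. For CBD+LPS against LPS these shares were 61.6% and 83.8%. For CBD+LPS against THC+LPS they were 69.6% and 87.9%.

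Of the 40 measured genes, 31 were detected on all arrays, Wipi1 and Gabarapl2 on 12 and 19 arrays, and 7 on none. The 7 were Atg5, of the conjugation machinery, the proton pump subunits Atp6v0d2 and Atp6v1h, the cathepsin Ctsl, the cholesterol transporter Npc1, the carboxypeptidase Scpep1 and Tfeb itself. Tfeb read 6.52 and 6.63 with CBD+LPS, 6.52, 6.57, 6.73 and 6.82 with THC+LPS, 6.62 to 6.99 (median 6.70) with LPS, 6.54 and 6.70 with CBD, 6.67, 6.75, 6.79 and 6.88 with THC, and 6.76 to 6.98 (median 6.87) in control cells, below detection on every array. The level of the regulator is therefore not given by this probe.

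The letters that TFEB is known to recognise, CACGTG, were searched on both strands in the 250 bases before the RefSeq start of each gene (GRCm38.p6). Of the 34 members in the RefSeq promoter table, 11 held it in at least 1 listed promoter (32.4%): Atg5, Atg7, Ctsa, Ctsd, Ctsl, Gaa, Glb1, Lamp1, Lgmn, Mcoln1 and Mcoln2. Over all 27025 genes in the table the share was 6.86%, and over all 32851 promoters 6.02%. The longer form TCACGTGA, which contains CACGTG, was found in Ctsa, Ctsd and Mcoln1, against 0.907% of all genes and 0.785% of all promoters. The antioxidant response element core, TGACNNNGC, was found in 6 members (17.6%), against 11.5% of all genes and 10.2% of all promoters. The core TGATGNAA bound by the stress factors CHOP and ATF4, was found in 1 member (2.94%), against 3.91% of all genes and 3.45% of all promoters. A match is a stretch of letters and was not tested for binding. Shown first are the promoters of the pair of members with the largest changes. Capitals mark CACGTG and TGACNNNGC (either strand), and the Sqstm1 window holds neither.
Sqstm1, chr11:50210821-50211070, minus strand: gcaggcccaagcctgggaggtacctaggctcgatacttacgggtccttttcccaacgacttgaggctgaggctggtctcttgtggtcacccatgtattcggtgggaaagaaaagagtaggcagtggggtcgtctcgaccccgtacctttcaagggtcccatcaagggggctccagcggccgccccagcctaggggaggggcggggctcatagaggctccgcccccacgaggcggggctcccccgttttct
Mcoln2, chr3:146149924-146150173, plus strand: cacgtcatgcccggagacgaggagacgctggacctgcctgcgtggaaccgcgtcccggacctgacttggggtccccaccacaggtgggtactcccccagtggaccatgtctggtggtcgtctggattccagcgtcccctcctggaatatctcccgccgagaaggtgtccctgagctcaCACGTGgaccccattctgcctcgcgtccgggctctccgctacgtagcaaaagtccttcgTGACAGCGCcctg
The next 4 are short windows around the motif in capitals, CACGTG in Atg7 (a member that was higher with CBD) and TCACGTGA in the 3 genes that held the longer form and were called in no comparison.
Atg7, chr6:114670952-114670981, plus strand: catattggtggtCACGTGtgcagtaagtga
Ctsd, chr7:142387907-142387938, minus strand: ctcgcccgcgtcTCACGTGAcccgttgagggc
Ctsa, chr2:164833748-164833772, plus strand: atgagcaaactgTCACGTGAtgcag
Mcoln1, chr8:3500461-3500492, plus strand: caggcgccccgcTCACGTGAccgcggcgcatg

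LPS raised the autophagy adaptor Sqstm1 and the endolysosomal channel Mcoln2 and lowered 6 members that build autophagosomes or break down lipids and proteins. Of the 40 measured members, 2 were higher and 6 lower with LPS than in control cells (20% called). Over all probes 13.6% were called, 5.63% higher and 7.94% lower. Among probes detected on at least 2 arrays 25.9% were called, and among the 33 detected members 24.2%, so the share called is near that of detected probes. In such bulk samples fewer cells of a state and less RNA per cell cannot be told apart. The median log2 fold change was -0.05 over the 40 members and -0.01 over all probes.

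Mcoln2 encodes mucolipin 2 (TRPML2), a cation channel of recycling endosomes and lysosomes. Its signal was 11.97 to 12.43 (median 12.09) in LPS cells, against 10.49 to 10.83 (median 10.72) in control cells. The 6 LPS arrays all lay above the 6 control arrays, a 2.78-fold rise (log2 1.48, standard error 0.14, adjusted p = 2.07e-08). Mcoln1, the family member that releases calcium from lysosomes, had a log2 fold change of -0.04 and was not called.

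Sqstm1 encodes p62, which binds ubiquitinated cargo and hands it to the autophagosome. It read 13.35 to 14.45 (median 14.06) in LPS cells, against 12.30 to 13.03 (median 12.83) in control cells. These groups did not overlap either, and the rise was 2.34-fold (log2 1.23, standard error 0.17, adjusted p = 8.04e-06).

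Map1lc3b encodes LC3B, the ATG8-family protein that coats the autophagosome membrane. It read 10.06 to 10.67 (median 10.41) in LPS cells, against 10.50 to 11.39 (median 11.01) in control cells. The ranges overlapped, and the mean fell by 31.9% (log2 -0.55, standard error 0.15, adjusted p = 0.0101). Its relatives Gabarapl1 and Gabarapl2 had log2 fold changes of -0.02 and -0.03 and were not called. Transcripts of Sqstm1 and Map1lc3b therefore moved in opposite directions with LPS, and the arrays do not measure their proteins.

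The kinase Ulk1, which starts autophagosome formation, fell by 22.8% (7.65 to 8.02 in LPS cells, 8.01 to 8.55 in control cells, log2 -0.37, adjusted p = 0.00723). The conjugation enzyme Atg7 fell by 18.9% (7.94 to 8.28 in LPS cells, 8.12 to 8.49 in control cells, log2 -0.30, adjusted p = 0.0208). Among the lysosomal proteins, legumain (Lgmn), a protease that cuts after asparagine, fell by 28.7% (log2 -0.49, adjusted p = 2.82e-05), with all 6 LPS arrays (13.40 to 13.73) below all 6 control arrays (13.77 to 14.26). Prosaposin (Psap), the precursor of the saposins that help degrade sphingolipids, fell by 28.4% (13.69 to 14.25 in LPS cells, 14.14 to 14.63 in control cells, log2 -0.48, adjusted p = 0.00723). Acid ceramidase (Asah1) fell by 14.2% (13.96 to 14.12 in LPS cells, 14.16 to 14.39 in control cells, log2 -0.22, adjusted p = 0.0109). Its 2 dimmer probes, 1 of them undetected, had log2 fold changes of -0.15 and 0.05 and were not called. No glycosidase and no lysosomal membrane protein was called, and Lamp1, the most used marker of the organelle, had 13.71 to 13.99 (median 13.83) in LPS cells and 13.89 to 14.10 (median 13.95) in control cells (log2 -0.14, 95% interval -0.283 to -0.005, adjusted p = 0.199). The Atg7 call was lost without LPS replicate 6 (adjusted p = 0.0503), without Cntr replicate 4 (0.0559) or without Cntr replicate 6 (0.0501), and with normexp background correction by neqc (0.0665). The Asah1 call was lost with median scaling (0.139).

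**Figure D1:**
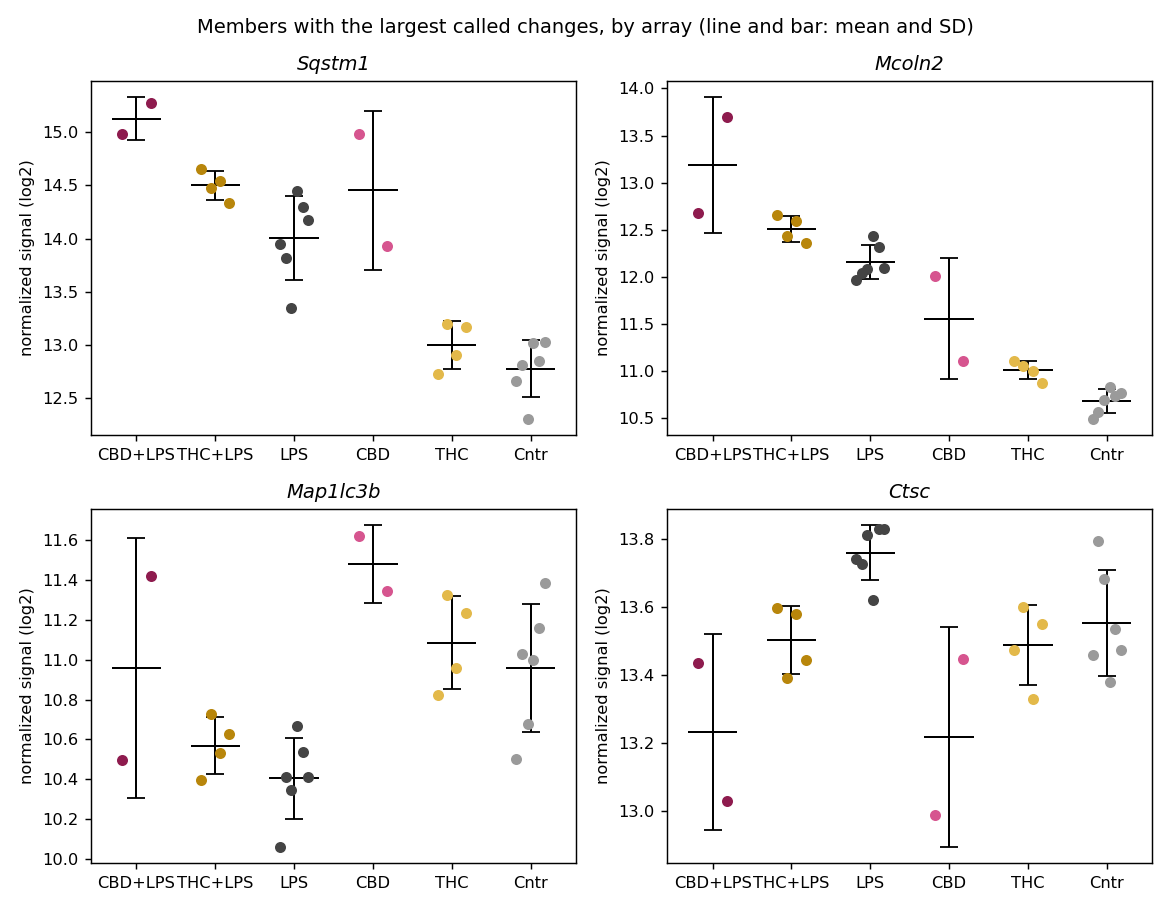
Normalized log2 signal of Sqstm1, Mcoln2, Map1lc3b and Ctsc on each array (points), with the group mean (line) and SD (bar), for CBD+LPS (2 arrays), THC+LPS (4), LPS (6), CBD (2), THC (4) and control cells (6). All LPS arrays of Sqstm1 and Mcoln2 lie above all control arrays, and both CBD+LPS arrays of Ctsc lie below all LPS arrays.

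CBD alone raised Sqstm1, Mcoln2 and Atg7, and no member was called lower. That is 3 of 40 members (7.5%), where 2.83% of all probes (1.71% higher and 1.13% lower) and 5.53% of detected probes were called. Among the 33 detected members the share was 9.09%. As the members were chosen with earlier results of these data known, these shares are a description and not a test. The median log2 fold change was 0.04 over the 40 members and -0.01 over all probes.

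Sqstm1 read 14.98 and 13.93 with CBD, against 12.30 to 13.03 (median 12.83) in control cells. Both CBD arrays were above every control array, and the mean was 3.19-fold higher (log2 1.67, standard error 0.24, adjusted p = 2.48e-04). Mcoln2 read 12.01 and 11.10 with CBD, against 10.49 to 10.83 in control cells, a 1.83-fold rise (log2 0.88, standard error 0.20, adjusted p = 0.0137). Atg7 read 8.97 and 8.62 with CBD, against 8.12 to 8.49 in control cells, a 1.37-fold rise (log2 0.46, standard error 0.12, adjusted p = 0.0463).

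The calls differed between the 2 CBD arrays. With 1 array left, its spread is assumed to be that of the other groups. Calls over all probes rose without CBD replicate 2 and fell without CBD replicate 1, so the swing was not particular to these genes. Without CBD replicate 1, which had the higher value of all 3 genes, the calls were lost. The log2 fold changes were then 1.15 for Sqstm1, 0.42 for Mcoln2 and 0.28 for Atg7. The remaining array of Sqstm1 (13.93) was still above every control array. Mcoln2 also lost its call with median scaling (adjusted p = 0.0679) and with the replicate number as a block (0.0556), and Atg7 under 19 of the other 34 settings tried.

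LC3B transcripts were not called with CBD. Map1lc3b read 11.62 and 11.34 with CBD, against 10.50 to 11.39 (median 11.01) in control cells (log2 0.52, 95% interval 0.09 to 0.95, adjusted p = 0.229). Gabarapl1, another ATG8-family member, read 11.07 and 10.88 with CBD and 10.19 to 10.80 in control cells (log2 0.50, 95% interval 0.19 to 0.81, adjusted p = 0.0721). Ctsc, cathepsin C, which activates the serine proteases of immune cells, had a log2 fold change of -0.34 on its brightest probe (adjusted p = 0.169), while its dimmer probe was called lower (log2 -0.68, adjusted p = 0.0179). Lamp1 read 14.08 and 14.11 with CBD, against 13.89 to 14.10 in control cells (log2 0.12, 95% interval -0.07 to 0.32).

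In LPS-treated cells, CBD raised Sqstm1, Mcoln2 and Atg7 again and lowered Ctsc. These 4 of 40 members (10%) compare with 3.9% of all probes (2.41% higher and 1.5% lower) and 7.49% of detected probes. Among the 33 detected members the share was 12.1%. These shares too are a description, as the members were chosen with earlier results known. The median log2 fold change was -0.04 over the 40 members and -0.01 over all probes. LPS and CBD each raised Sqstm1 and Mcoln2, and the 2 highest values of each gene over all 24 arrays were in cells that received both. The lower of these was only just above the next array. It was 14.986 against 14.980 (CBD) for Sqstm1 and 12.68 against 12.66 (THC+LPS) for Mcoln2.

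Sqstm1 read 14.99 and 15.27 with CBD+LPS, against 13.35 to 14.45 (median 14.06) with LPS (2.17-fold, log2 1.12, standard error 0.24, adjusted p = 0.00867). The higher of these is close to 15.31, the highest value in the table, where further change may go unseen. Mcoln2 read 12.68 and 13.70 with CBD+LPS, against 11.97 to 12.43 (median 12.09) with LPS (2.04-fold, log2 1.03, standard error 0.20, adjusted p = 0.00341). Atg7, which LPS lowered, read 8.31 and 8.71 with CBD+LPS, against 7.94 to 8.28 with LPS (1.39-fold, log2 0.48, standard error 0.12, adjusted p = 0.0301). For all 3 genes both CBD+LPS arrays were above every LPS array. They were already called on these same arrays and no share of all probes is given, so this only describes them. A different response to CBD with LPS was not detectable with 2 CBD arrays in each state: the interaction was -0.55 for Sqstm1, 0.15 for Mcoln2 and 0.02 for Atg7 (log2), and limma called none of the 40 members at an adjusted p under 0.05 (1 at an unadjusted p under 0.05), and 0% of all probes. The interaction of THC and LPS likewise gave 0 calls (0 at an unadjusted p under 0.05).

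Ctsc read 13.44 and 13.03 with CBD+LPS, against 13.62 to 13.83 (median 13.78) with LPS. Both were below every LPS array, and the mean fell by 30.6% (log2 -0.53, standard error 0.12, adjusted p = 0.0143). Its dimmer probe gave -0.56 (adjusted p = 0.0481). Cathepsin H (Ctsh), an aminopeptidase, had a log2 fold change of -0.46 and was not called. Map1lc3b read 10.49 and 11.42 with CBD+LPS, against 10.06 to 10.67 with LPS, so that its 2 arrays lay 1 inside and 1 above the LPS range (log2 0.55, 95% interval 0.12 to 0.98, adjusted p = 0.158).

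The 2 CBD+LPS arrays differed in the same way. Calls over all probes rose without CBD+LPS replicate 1 and fell without CBD+LPS replicate 2, so this swing too was not particular to the members. Without CBD+LPS replicate 2 the member calls were lost. The log2 fold changes were then 0.98 for Sqstm1, 0.52 for Mcoln2, 0.27 for Atg7 and -0.32 for Ctsc. The remaining array of Sqstm1 (14.99) was still above every LPS array. With median scaling Sqstm1 and Atg7 lost their calls (0.127 and 0.0635), and with the compared groups fitted alone Atg7 and Ctsc did (0.101 and 0.0553).

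**Figure D2:**
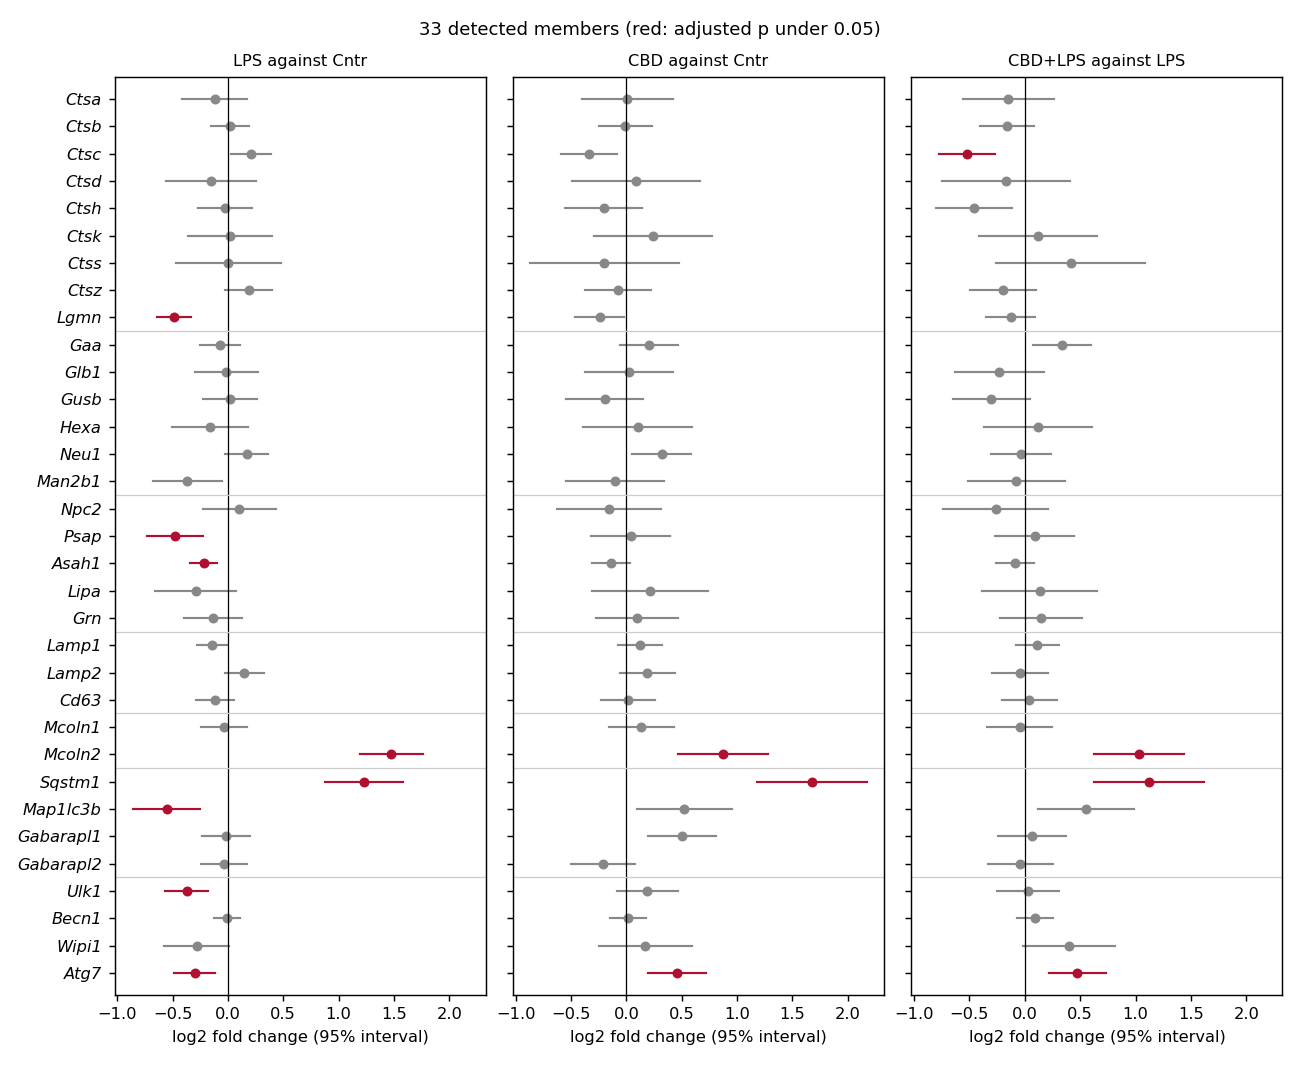
Log2 fold change with its 95% interval for the 33 members detected on at least 1 array, in LPS against control cells, CBD against control cells and CBD+LPS against LPS, grouped by role (grey lines) and red where the adjusted p was under 0.05. Mcoln2 and Sqstm1 lie to the right in all 3 panels, while Map1lc3b and Atg7 are left of 0 with LPS and right of 0 in both CBD comparisons.

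THC changed no member past the threshold, alone or with LPS. Called probes were 0.00406% of the table for THC against control cells (1 probe, or 0.00811% of detected probes) and 0% for THC+LPS against LPS. At an unadjusted p under 0.05, 4 of the 40 members differed in each comparison. These counts were not set against all probes and are not read as an effect of THC. Sqstm1 read 12.73, 12.91, 13.17 and 13.20 with THC and 12.30 to 13.03 in control cells (log2 0.22, 95% interval -0.17 to 0.62). With THC+LPS it read 14.33, 14.48, 14.54 and 14.65, against 13.35 to 14.45 with LPS (log2 0.49, 95% interval 0.10 to 0.89, adjusted p = 1.000). Mcoln2 read 10.88, 11.0005, 11.06 and 11.11 with THC, each above the 10.49 to 10.83 of control cells (log2 0.33, 95% interval 0.01 to 0.65, adjusted p = 0.999). With THC+LPS it read 12.36, 12.44, 12.60 and 12.66, against 11.97 to 12.43 with LPS (log2 0.35, 95% interval 0.03 to 0.68, adjusted p = 1.000). Ctsc read 13.39, 13.44, 13.58 and 13.60 with THC+LPS, each below the 13.62 to 13.83 of LPS cells (log2 -0.26, 95% interval -0.46 to -0.06, adjusted p = 1.000).

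CBD and THC are isomers, THC having a closed ring where CBD has an open one, and were given at the same dose for the same time, so their arrays were compared directly. The comparison covers this 1 pair of compounds, without and with LPS, with the same adjustment of p-values as above. Without LPS only Sqstm1 was called, 1 of 40 members (2.5%, or 3.03% of the 33 detected members). Called probes were 0.784% of all probes (0.52% higher and 0.264% lower) and 1.48% of detected probes. Sqstm1 read 14.98 and 13.93 with CBD, both above the 12.73 to 13.20 of the 4 THC arrays, a 2.74-fold difference (log2 1.45, standard error 0.26, 95% interval 0.92 to 1.98, adjusted p = 0.00565). Without CBD replicate 1 the difference was 0.93 (adjusted p = 0.860), and with the compared groups fitted alone the adjusted p was 0.119.

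Mcoln2 differed by 0.55 between CBD and THC (95% interval 0.11 to 0.98, adjusted p = 0.298), Map1lc3b by 0.40 (-0.06 to 0.85, adjusted p = 0.607) and Atg7 by 0.24 (-0.03 to 0.51, adjusted p = 0.607), on the log2 scale. With LPS no member was called, where 0.922% of all probes (0.642% higher and 0.28% lower) and 1.79% of detected probes were called. At an unadjusted p under 0.05, 6 of the 40 members differed, a count not set against all probes. Both CBD+LPS arrays of Sqstm1 (14.99 and 15.27) were above the 4 THC+LPS arrays (14.33 to 14.65), with a difference of 0.63 (95% interval 0.10 to 1.16, adjusted p = 0.313). Mcoln2 likewise did not overlap (12.68 and 13.70 against 12.36 to 12.66), with a difference of 0.68 (95% interval 0.24 to 1.11, adjusted p = 0.138). The intervals with LPS reach past a doubling, and none of these intervals shows that the isomers act alike on these genes.

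**Figure D3:**
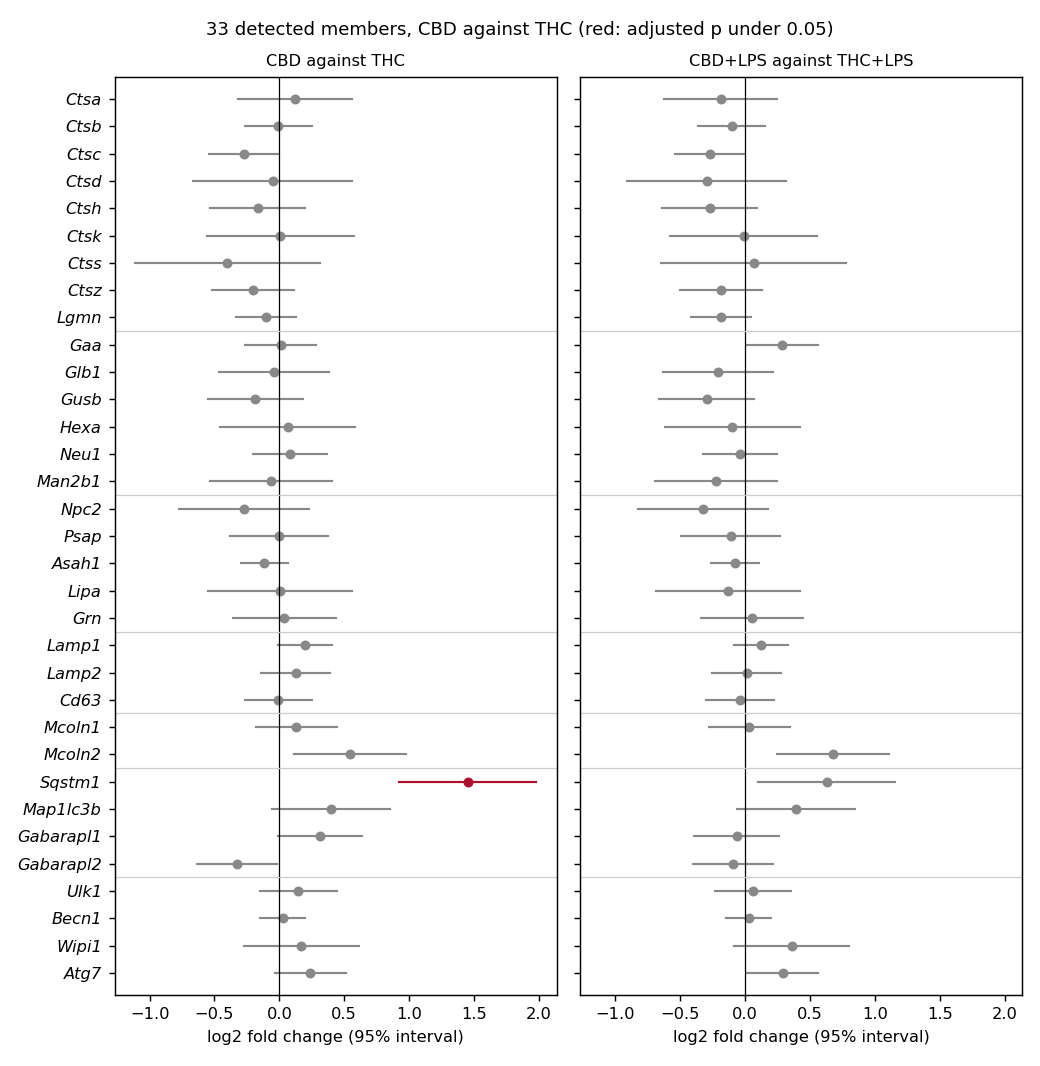
Log2 difference between CBD and THC with its 95% interval for the 33 detected members, without LPS (left) and with LPS (right), red where the adjusted p was under 0.05. Sqstm1 without LPS (1.45) is the only red point, and with LPS Mcoln2 (0.68) and Sqstm1 (0.63) are farthest to the right.

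Grouped by role, the calls were few. None of the 6 glycosidases (Gaa, Glb1, Gusb, Hexa, Neu1 and Man2b1) was called in any of the 9 contrasts, nor was any of the 3 membrane proteins (Lamp1, Lamp2 and Cd63). Of the 11 measured proteases, Lgmn was called with LPS and Ctsc with CBD+LPS against LPS. The cathepsins Ctsa, Ctsb, Ctsd, Ctsh, Ctsk, Ctss and Ctsz were called nowhere. Among the 6 members that handle lipids, Psap and Asah1 were called with LPS. Of the 4 adaptor and ATG8-family genes, 1 was higher and 1 lower with LPS, and 1 was higher in each CBD comparison against its own control. The difference between roles was not tested.

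Ctsd, cathepsin D, the main aspartic protease of the lysosome, varied more within groups than between them. It read 13.15 and 13.57 with CBD+LPS, 13.19, 13.38, 13.93 and 14.12 with THC+LPS, 13.16 to 14.15 (median 13.34) with LPS, 13.80 and 13.74 with CBD, 13.43, 13.61, 14.01 and 14.24 with THC, and 13.20 to 14.15 (median 13.60) in control cells. Its standard error for LPS against control cells was 0.20, against 0.07 for Lamp1. This spread followed a split of the arrays that no label names: the first component of what was left after the group means (8934 probes detected on all arrays) held 36.9% of that variation. In the 4 groups with more than 2 arrays, the 8 arrays with a positive score on it had Ctsd at 13.93 to 14.24 and the other 12 at 13.16 to 13.65. A second probe of Ctsb, cathepsin B, singled out after its values were seen, split further, with 11.03 to 12.04 on the same 8 arrays and 9.69 to 10.57 on the other 12. The brighter Ctsb probe had 14.28 to 14.61 and 14.15 to 14.45, with overlap. The scores are centred within each group, so a pair of arrays always has 1 of each sign. Both CBD arrays (10.33 and 9.91) and both CBD+LPS arrays (10.39 and 10.44) read within the lower range of the second Ctsb probe. The part of this split in the results was not tested as a cause. Of the members called with LPS, Psap and Map1lc3b are given here within each kind of array. Ulk1 and Atg7, whose LPS and control ranges overlapped too, are not given. How the split bears on the CBD comparisons was not tested. Psap was 14.21 to 14.25 in 2 LPS arrays against 14.625 and 14.628 in 2 control arrays of positive score, and 13.69 to 13.96 in 4 LPS arrays against 14.14 to 14.53 in 4 control arrays of negative score. Map1lc3b was 10.06 to 10.41 against 10.50 to 10.998 in the same arrays of positive score, and 10.35 to 10.67 against 10.68 to 11.39 in those of negative score. Neither gene overlapped within either kind. These sets are small, both genes were already called on the same arrays, and no share of all probes is given. The reading is therefore a description and not a test.

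**Figure D4:**
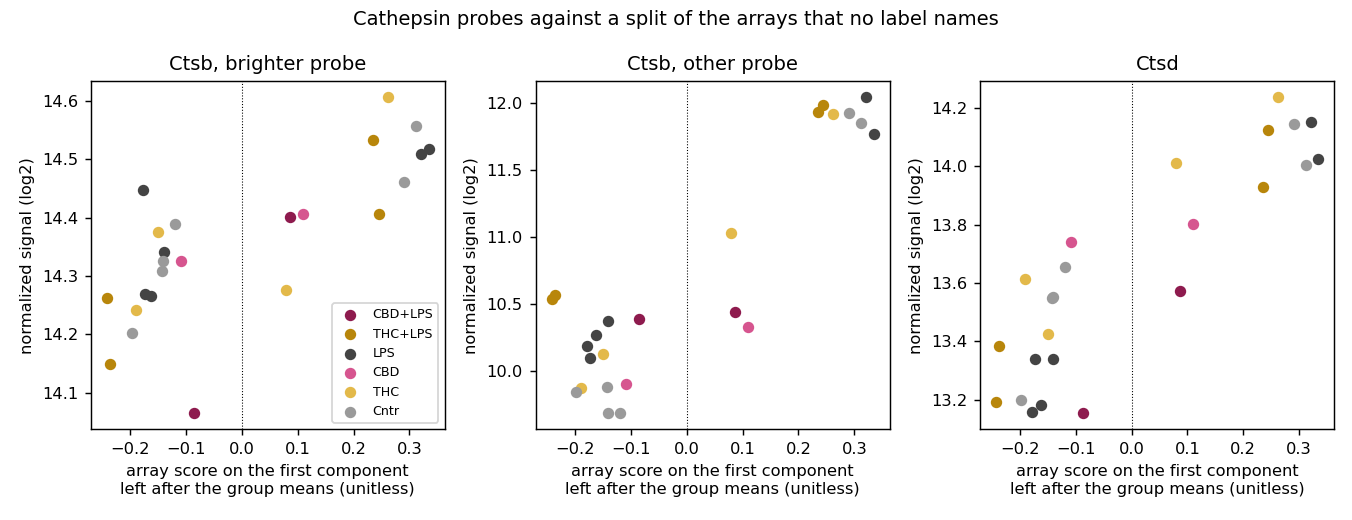
Normalized log2 signal of the brighter Ctsb probe, the other Ctsb probe and Ctsd (vertical axes) against each array's score on the first component left after the group means (horizontal axis, unitless), with 1 point per array coloured by group. The other Ctsb probe and Ctsd are higher on the 8 THC+LPS, LPS, THC and control arrays right of 0 (11.03 to 12.04 and 13.93 to 14.24), while the brighter Ctsb probe overlaps.

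A wider list of 129 further lysosome and autophagy genes, 112 with a probe, placed the members among their pathway. With LPS 6 of the 112 were higher and 16 lower, with CBD 3 were higher and 0 lower, and with CBD+LPS against LPS 5 were higher and 1 lower. The shares called were 19.6% with LPS, against 13.6% of all probes and 25.9% of detected probes, 2.68% with CBD, against 2.83% and 5.53%, and 5.36% for CBD+LPS against LPS, against 3.9% and 7.49%. All 3 shares lie below those of detected probes, but they count all 112 genes, of which 95 were detected on at least 1 array. No wider gene was called with THC. CBD was above THC for 2 (1.79%, against 0.784% of all probes and 1.48% of detected probes). CBD+LPS was above THC+LPS for 3 (2.68%, against 0.922% and 1.79%). The wider lists of 4 cystatins and 15 proton pump subunits held 0 and 1 calls over these comparisons.

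The 3 wider genes called higher with CBD were Ddit4, Wdr45 and Trp53inp1. Ddit4 (REDD1), an inhibitor of the growth kinase mTORC1, read 8.69 and 8.11 with CBD, and was detected on none of the 6 control arrays (6.59 to 7.09), so that it was at least 2.35-fold higher (adjusted p = 1.80e-04). Such a bound sets the mean of the brighter group against the detection floor of the other. With CBD+LPS it read 7.79 and 8.75, against 6.47 to 7.27 with LPS, where 1 of 6 arrays detected it, so that no fold is given (adjusted p = 3.26e-04). Wdr45, which binds the lipid of the forming autophagosome, read 10.70 and 9.98 with CBD, against 8.97 to 9.38 in control cells (2.22-fold, log2 1.15, adjusted p = 0.00103). With CBD+LPS it read 9.80 and 10.69, against 8.51 to 9.24 with LPS (2.64-fold, log2 1.40, adjusted p = 9.50e-05). Trp53inp1, a p53-induced protein that binds ATG8-family members, read 9.07 and 7.52 with CBD and was detected on 2 of 6 control arrays (6.75 to 7.29, adjusted p = 0.0287, lost under 7 of 34 other settings). Its mean was at least 2.14-fold higher with CBD+LPS (7.44 and 9.24) than with LPS (6.91 to 7.21, detected on no array, adjusted p = 0.0149, lost under 4 of 34 other settings). The lower of these CBD+LPS arrays was close to the detection floor of 7.25 in the LPS group, so the bound rests mostly on the other. Wipi2, a relative of Wdr45, was higher with CBD+LPS (9.78 and 10.01) than with LPS (8.998 to 9.58, 1.62-fold, adjusted p = 0.0167, lost under 3 of 34 other settings). Without CBD replicate 1 the 3 calls against control cells were lost (Ddit4 adjusted p = 0.0998, Wdr45 0.386 and Trp53inp1 0.999). Without CBD+LPS replicate 2 so were the 4 against LPS (0.136, 0.0577, 0.798 and, for Wipi2, 0.454), though Wdr45 still had a log2 fold change of 0.95.

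Wdr45 was also higher with CBD than with THC (log2 0.89, adjusted p = 0.0342, lost under 8 of 34 other settings) and with CBD+LPS than with THC+LPS (log2 1.17, adjusted p = 0.00404). Ddit4 was higher with CBD (8.69 and 8.11) than with THC (6.70 to 7.26, detected on 1 of 4 arrays, adjusted p = 0.00378). With CBD+LPS it was at least 2.05-fold higher than with THC+LPS, where no array detected it (adjusted p = 0.00321). Trp53inp1 was called for CBD+LPS (7.44 and 9.24) against THC+LPS (6.86 to 7.24, detected on 1 of 4 arrays, adjusted p = 0.0406), a call lost under 18 of 34 other settings. With the compared groups fitted alone none of these 5 was called (adjusted p 0.0766 to 0.326), and without CBD replicate 1 or CBD+LPS replicate 2 none was either (0.398 to 1.000).

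With LPS the largest changes in the wider list were in lysosomal enzymes and membrane proteins. Dram1, a lysosomal membrane protein that promotes autophagy, read 12.46 to 12.88 in LPS cells, against 11.40 to 11.90 in control cells (2.02-fold, log2 1.01, adjusted p = 1.23e-06). Acp2, lysosomal acid phosphatase, read 10.73 to 11.42 in LPS cells and 9.96 to 10.76 in control cells (1.71-fold, log2 0.78, adjusted p = 0.00302). Pla2g15, the lysosomal phospholipase A2, fell by 46.4% (11.02 to 11.52 in LPS cells, 11.77 to 12.51 in control cells, log2 -0.90, adjusted p = 5.62e-07). Slc17a5, which exports sialic acid from the lysosome, fell by 38.6% (7.68 to 8.19 in LPS cells, 8.48 to 8.90 in control cells, log2 -0.70, adjusted p = 2.38e-05). These 4 calls held under all 34 other settings tried.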

How the data were processed

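Total RNA of BV-2 cells was measured on 24 Illumina MouseRef-8 arrays in 6 groups. The authors deposited unnormalized intensity values with a detection p-value for each probe, and a table of log2 values. The deposited log2 values equal the quantile-normalized log2 intensities (largest difference 5.00e-09), with no background correction. The scanner software is not given in the sources used here. Gene names came from the platform annotation, in which 19852 of 24611 probes carry a symbol. The unnormalized median intensity was 108.9 to 156.6 per array. Precision is set by how many arrays a group holds.

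The log2 values were fitted with limma 3.58.1 in R 4.3.3, with a mean per group, all 24 arrays and no filter. Calls were made at an adjusted p under 0.05. The fit was checked on simulated data. Per-array values are given for members called with a log2 change of at least 0.5 and for Tfeb, Lamp1, Ctsd and Map1lc3b, and the other members called are given by fold change. Non-members come from the wider list, at most 8, those with the largest called change. Where a probe was undetected on every array of a group, a bound was computed against the lowest signal among detected probes of each array. Alternatives were background correction by neqc, median scaling, a detection filter, other designs and leaving out each array. The members and lists were chosen with earlier results of these data known. Promoter sequences are from RefSeq (GRCm38.p6).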

Additional observations from a re-analysis of the deposited data

Results flagged for a closer look

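Of 48 combinations of gene and group with 4 or 6 arrays, for 12 genes whose values are described above, 1 had an array far from the others by Dixon's ratio, where chance gives about 1 in 20. LPS replicate 4 read 8.28 for Atg7, while the other 5 LPS arrays read 7.94 to 8.06.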

How the results depend on the processing

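The 16 calls described for members kept their direction in all 560 repeats under other settings, and 46 of the repeats lost the call. Many settings, such as leaving out an array of a group not compared, keep the same group means. The direction could not change there. Leaving out each array in turn, the number of members called was 7 to 9 for LPS against control cells, 0 to 4 for CBD against control cells, 0 to 5 for CBD+LPS against LPS, 0 to 2 for CBD against THC and 0 to 2 for CBD+LPS against THC+LPS, and 0 in the other 4 contrasts. Calls over all probes swung likewise with 1 array left in the CBD or CBD+LPS group. The ranges of the CBD comparisons are therefore not read as a result about the members. With median scaling 1 member was called for CBD against control cells (over all 24611 probes, 247 higher and 147 lower). For CBD+LPS against LPS it was 2 (617 and 119). With the compared groups fitted alone 2 were called for CBD+LPS against LPS (228 and 110) and 0 for CBD against THC (6 and 0). At an unadjusted p of 0.005 or less 1 member each differed for THC+LPS against LPS and for CBD+LPS against THC+LPS. These counts too were not set against all probes. The difference of Map1lc3b between CBD+LPS and THC+LPS, which was not called, was 0.39 with all arrays, turned to -0.07 (-0.07405) without CBD+LPS replicate 2 and was 0.85 (0.8518) without CBD+LPS replicate 1. The causes were not tested.

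Groups share replicate numbers, but same-numbered arrays did not deviate together (correlations of both signs, and -0.75 between CBD and CBD+LPS). With the replicate number as a block, 1 member (Sqstm1) was called for CBD against control cells. With the CBD+LPS numbers crossed, an alternative chosen after seeing the data, 2 were called there and 3 for CBD+LPS against LPS. With either block, calls over all probes also fell in these comparisons, so the lower counts were not particular to the members. Also chosen after seeing the data, the unlabelled component as a covariate gave 10, 4 and 4 members for LPS, CBD and CBD+LPS. Calls over all probes rose too. With LPS they were 1611 higher and 2426 lower, against 1386 and 1953 without the covariate. With CBD they were 702 and 597, against 420 and 277. For CBD+LPS against LPS they were 907 and 748, against 592 and 369. The member counts are therefore not read as a result about the members. The component's scores are centred within each group, so this covariate leaves every group difference unchanged and alters only the spread. It cannot adjust for an imbalance of the split between groups. The neqc setting inferred its background from detection p-values that 1 bright probe distorts, and leaving that probe out was added.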
